A study of Rattus norvegicus with 8 samples.

Results

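rno-miR-3473, rno-miR-3584-5p and rno-miR-1224 (rno for rat, left out below) gave the strongest signals among the 719 rat miRNAs on arrays of serum exosomal RNA. They were chosen by total signal, as the 3 miRNAs with the highest mean over all 8 arrays, 4 from controls and 4 from reflux esophagitis (RE). Both groups were male Wistar rats kept free of specific pathogens. The controls had a sham operation. RE rats had acid reflux induced by ligation at the border of the forestomach and narrowing of the duodenum, and their serum is labelled day 21, the chronic phase. The labels give no day for the controls. Exosomes were precipitated from serum with Exoquick, and RNA was hybridised to single-colour Agilent arrays, 1 array per sample. Whether the samples are from different rats is not stated. P-values therefore cover only sample-to-sample spread, which may be technical.

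MicroRNAs are short RNAs that guide repressor proteins to messenger RNAs, mainly through the seed, bases 2 to 8 from the 5′ end. In blood they are carried in vesicles such as exosomes, in protein complexes and in cells. miR-1224 is known in mammals as a mirtron, a miRNA cut from a short spliced intron. miR-3473 and miR-3584 were named in rodents and are much less studied.

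The mature sequences from RefSeq (build GRCr8) are shown because base composition and the probes both turn on them, with the seed in capitals.
miR-3473: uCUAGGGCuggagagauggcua
miR-3584-5p: gGGAGGAGuccaggaggc
miR-1224: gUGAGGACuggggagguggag
In GRCr8, miR-3473 lies on the plus strand at chr13:42051730-42051751, within the span of the protein-coding gene Zranb3. miR-3584-5p lies on the minus strand at chr1:256727582-256727599, within the span of Itprip and of a long non-coding RNA gene. miR-1224 lies on the minus strand at chr11:93811355-93811375, within the span of Vwa5b2. No other mature miRNA of the RefSeq table had any of the 3 seeds. The 3 sequences share the run GGAG, which 50 of the 641 array miRNAs matched to RefSeq hold, these 3 included (7.80%).

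Each miRNA was read by a pair of probes that differ by 1 base, with 10 spots for each probe. Probe sequences are given from 5′ to 3′ as the array files list them, with the extra base of the longer probe in capitals.
miR-3473 shorter probe: tagccatctctccag
miR-3473 longer probe: tagccatctctccagC
miR-3584-5p shorter probe: gcctcctggactc
miR-3584-5p longer probe: gcctcctggactcC
miR-1224 shorter probe: ctccacctcc
miR-1224 longer probe: ctccacctccC
All 6 probes are exact complements of the 3′ end of their miRNA. They cover bases 8 to 22 or 7 to 22 of miR-3473, bases 6 to 18 or 5 to 18 of miR-3584-5p and bases 12 to 21 or 11 to 21 of miR-1224. The probes of miR-1224 are the shortest of the 3 pairs. Of the 1730 probes for rat miRNAs, 16 have 10 bases, the shortest length on the array, and the median length is 16.

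The files gave 77376 to 268246 units of total rat miRNA signal per array, with 144 to 245 miRNAs detected. RE replicate 9 had the fewest detected miRNAs and the least signal. Its bright corner control spots, at 597, were below the 1045 to 1851 of the other arrays, and 2 other control probes were slightly below the rest (1671 beside 1681 to 3049, and 920 beside 997 to 1766). A further pair was within the range of the other arrays (2521 beside 1839 to 4453, and 1507 beside 898 to 2716). All arrays came from 1 slide and 1 scan. Of the markers of red blood cells, 4 of the 5 listed were on the array, all 4 were detected on all arrays, and they held 4.89% to 10.9% of the signal in controls and 5.78% to 11.2% in RE. Platelet and leukocyte markers held 1.22% to 2.43% in controls and 1.35% to 3.67% in RE. Liver markers held 0.119% to 0.320% and 0.111% to 0.157%. None of the 4 listed striated muscle markers was detected on all arrays, and they held at most 0.113%. miR-133b-3p, a striated muscle miRNA outside that list, was detected on all arrays, with a mean signal of 1148.

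miR-3473 had the highest total signal on all 8 arrays. Its signal in control replicates 1, 2, 3 and 4 was 51662, 48606, 38229 and 56858. In RE replicates 5, 8, 9 and 10 it was 49428, 51735, 25011 and 45402. The RE values lay within the control range except in replicate 9, which was below it.

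miR-3584-5p was second on all 8 arrays. Its signal was 42320, 35728, 37710 and 50949 in controls and 44850, 44379, 15794 and 31642 in RE, in the same order of replicates. RE replicates 9 and 10 were below every control, and replicates 5 and 8 were within the control range.

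miR-1224 ranked 3 on every array but RE replicate 8, where miR-451-5p, a miRNA of red blood cells, was brighter. Its signal was 22027, 18565, 21192 and 27048 in controls and 23083, 15468, 8297 and 20453 in RE. RE replicates 8 and 9 were below every control. The mean signals over the 8 arrays were 45866 for miR-3473, 37921 for miR-3584-5p and 19517 for miR-1224. The nearest miRNAs outside the 3 were miR-451-5p with 9153 and miR-16-5p, another miRNA abundant in red blood cells, with 5765. Signal also depends on the probe, so these ranks are of signal and not of molecules.

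Together the 3 miRNAs held 59.1%, 58.9%, 56.5% and 50.5% of the signal of control replicates 1 to 4. They held 47.7%, 41.6%, 63.5% and 64.3% of RE replicates 5, 8, 9 and 10. Controls averaged 56.2% ± 4.04 and RE 54.3% ± 11.4 (SD, n = 4 each). RE samples stood on both sides of the controls: replicates 5 and 8 were below the lowest control and replicates 9 and 10 above the highest.

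**Figure D1:**
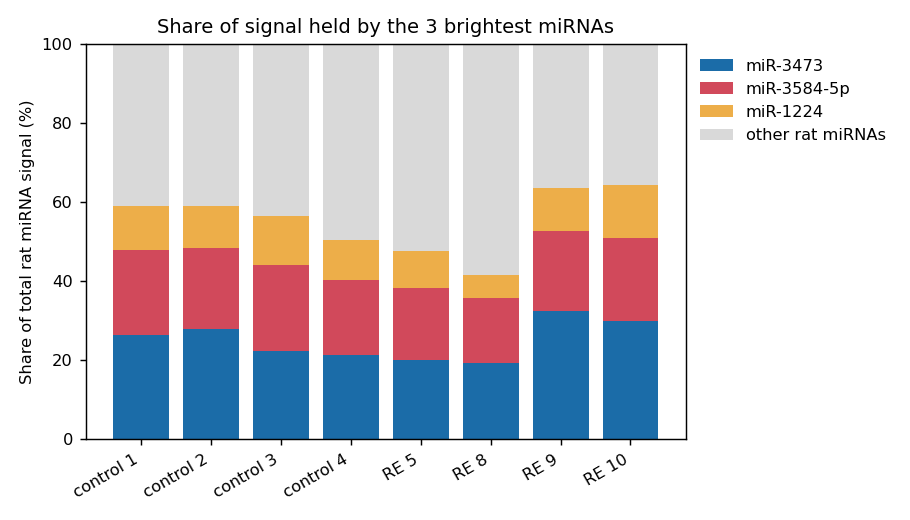
Stacked bars give the percent of each array's total rat miRNA signal held by miR-3473, miR-3584-5p, miR-1224 and all other rat miRNAs, for 4 controls and 4 RE samples. The 3 miRNAs together reach 41.6% in RE replicate 8 and 64.3% in RE replicate 10, outside the 50.5% to 59.1% of the controls on both sides.

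The share of miR-3473 was 26.3%, 27.8%, 22.2% and 21.3% in controls and 20.1%, 19.3%, 32.3% and 30.0% in RE. It had the same split, with replicates 5 and 8 below all controls and replicates 9 and 10 above. The group means were 24.4% ± 3.16 and 25.4% ± 6.69 (SD, n = 4 each), a difference of 0.995 percentage points (two-sided exact permutation test, p = 0.771, adjusted p = 0.771 over 3 tests).

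The share of miR-3584-5p was the steadiest of the 3 in RE by SD, though not in controls. It was 21.6%, 20.5%, 21.9% and 19.1% in controls and 18.2%, 16.5%, 20.4% and 20.9% in RE. The means were 20.8% ± 1.29 and 19.0% ± 2.01, a difference of -1.74 percentage points (exact permutation p = 0.2, adjusted p = 0.6).

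The share of miR-1224 was 11.2%, 10.6%, 12.3% and 10.1% in controls and 9.38%, 5.77%, 10.7% and 13.5% in RE. RE held both the lowest and the highest share. The means were 11.1% ± 0.948 and 9.84% ± 3.21, a difference of -1.23 percentage points (exact permutation p = 0.543, adjusted p = 0.771). None of the 3 differences passed, and with 4 arrays a group p cannot go below 0.0286. Leaving out 1 array could move each of these differences by more than 1.5 times, depending on the array. That of miR-3473 ran from -1.31 (without RE replicate 9) to 3.04, that of miR-3584-5p from -2.36 to -0.918 and that of miR-1224 from -2.45 to 0.124 (without RE replicate 8). The red blood cell markers were highest, at 11.2% and 10.9%, in RE replicate 8 and control replicate 4, the arrays with the lowest summed share of the 3 in their group. RE replicate 5, also low for the 3, had 5.79%. The shares of an array add up to its whole signal, so other miRNAs together hold more where the 3 hold less. The part of the red blood cell markers in the shares was not tested.

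To compare the groups, each signal was put on the log2 scale relative to the 75th percentile of its array, taken over those 144 miRNAs that all 8 arrays detected. That percentile was 584, 494, 558 and 915 in controls and 1052, 1080, 239 and 442 in RE replicates 5, 8, 9 and 10. The divisor was thus above every control in replicates 5 and 8 and below every control in 9 and 10. It is shared by the 3 miRNAs, so their scaled values are not separate evidence of a split. All 3 means were lower in RE, by less than the SD of the RE samples. None of the 3 was called by limma at an adjusted p under 0.05. Of the 192 miRNAs tested, 2 were called (1.04%). Both were among the 48 that passed the filter through the controls alone, and all 48 had lower means in RE. Of the 144 detected on all arrays, as the 3 were, limma called 0, with 1 at an unadjusted p under 0.05. The log2 fold changes of the 3 had a median of -0.31, beside -0.19 over those 144 and -0.29 over all 192.

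Scaled miR-3473 was 6.47, 6.62, 6.10 and 5.96 in controls and 5.55, 5.58, 6.71 and 6.68 in RE on the log2 scale. RE replicates 5 and 8 were below every control and replicates 9 and 10 above every control. The means were 6.29 ± 0.31 and 6.13 ± 0.65 (SD, n = 4 each), a log2 fold change of -0.15 (standard error 0.38, 95% confidence interval -1.02 to 0.71, limma adjusted p = 0.927, exact permutation p = 0.657).

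Scaled miR-3584-5p was 6.18, 6.18, 6.08 and 5.80 in controls and 5.41, 5.36, 6.05 and 6.16 in RE. RE replicates 5 and 8 were again below every control, and replicates 9 and 10 fell within the control range. The log2 fold change was -0.31 (standard error 0.30, interval -1.005 to 0.38, limma adjusted p = 0.912, exact permutation p = 0.2).

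Scaled miR-1224 was 5.24, 5.23, 5.25 and 4.89 in controls and 4.46, 3.84, 5.12 and 5.53 in RE. Replicates 5 and 8 were below every control, and replicate 10 was above. The log2 fold change was -0.42 (standard error 0.40, interval -1.31 to 0.48, limma adjusted p = 0.912, exact permutation p = 0.343). The intervals leave room for RE over control ratios of 0.492 to 1.64 for miR-3473, 0.498 to 1.30 for miR-3584-5p and 0.402 to 1.40 for miR-1224. These signs depended on the scaling. All 3 were positive, at 1.28 to 1.54, with the 75th percentile over all 719 miRNAs, where the median of all tested was 1.39. In RE replicate 9 that percentile is the value of an undetected miRNA. miR-3473 was also positive with median or total signal scaling (0.059 and 0.028). With limma's array quality weights the log2 fold changes were -0.65 for miR-3473, -0.64 for miR-3584-5p and -0.80 for miR-1224 (limma adjusted p = 0.152, 0.132 and 0.115). The 95% confidence intervals ended below 0, at -0.044, -0.12 and -0.18. Under these weights 56 of the 192 miRNAs had an unadjusted limma p under 0.05, and their median log2 fold change over all 192 was -0.37.

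**Figure D2:**
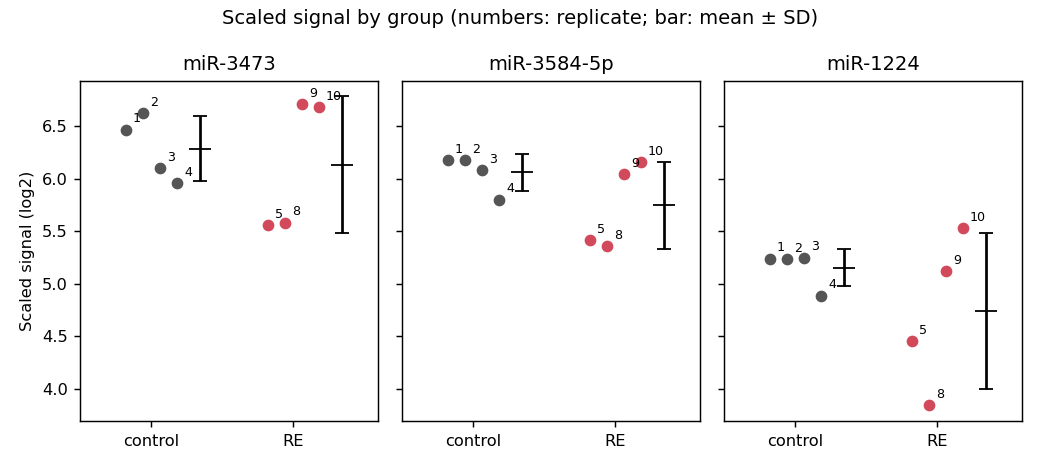
Points give the scaled signal (log2) of each miRNA in 4 controls and 4 RE samples, numbered by replicate, and bars give the mean ± SD. RE replicates 5 and 8 are below all controls in each panel, and RE replicates 9 and 10 are within or above the controls.

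The 3 miRNAs did not keep fixed proportions to each other, and only the ratio of miR-3584-5p to miR-1224 was near constant in controls. The ratio of miR-3584-5p to miR-1224 signal was between 1.78 and 1.92 in controls. In RE replicates 5, 8, 9 and 10 it was 1.94, 2.87, 1.90 and 1.55. The ratio of miR-3473 to miR-3584-5p ran from 1.01 to 1.36 in controls and from 1.10 to 1.58 in RE. The ratio of miR-3473 to miR-1224 was 2.14, 3.34, 3.01 and 2.22 in RE, beside 1.80 to 2.62 in controls. Replicates 8 and 9 were above every control in this ratio, and replicate 8 in that of miR-3584-5p to miR-1224 as well.

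The relation to the rest of the array was taken between the log2 signal of each miRNA and the log2 summed signal of all rat miRNAs other than the 3. That rest was 80261, 71737, 74783 and 132408 in controls and 128764, 156664, 28275 and 54066 in RE, a range of 5.54-fold. The 3 miRNAs ranged less, by 2.27-fold for miR-3473, 3.23-fold for miR-3584-5p and 3.26-fold for miR-1224. The miRNAs at ranks 4 to 10, which include miR-451-5p, miR-16-5p and miR-29a-3p, ranged by 5.59- to 8.92-fold. Their Pearson's r with the rest, each left out of it, was 0.812 (miR-451-5p) to 0.985 (miR-24-3p). These signals are not scaled, so the brightness of an array moves both sides of each relation. An r above 0 is thus not particular to the 3.

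Of the 3, miR-3584-5p followed the rest most closely. Over 8 arrays, Pearson's r was 0.927 (exact permutation p = 0.000372, adjusted p = 0.00112). Spearman's rho of miR-3584-5p was 0.929 (exact permutation p = 0.00223, adjusted p = 0.00670). Its r was 0.944 without RE replicates 8 and 9, the arrays farthest from the median of the rest, and between 0.887 and 0.958 with any 1 array left out. Each doubling of the rest went with a change of 0.61 log2 units of miR-3584-5p, where 1 would be proportional, and this slope was 0.36 without RE replicate 9.

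miR-3473 had r = 0.848 (exact permutation p = 0.00915, adjusted p = 0.0137), rho = 0.881 (exact permutation p = 0.00724, adjusted p = 0.0109) and a slope of 0.40. This relation rested on the dim array: r was 0.572 (exact permutation p = 0.240) without RE replicates 8 and 9, and 0.584 (adjusted p = 0.248, exact permutation) without RE replicate 9 alone, where the slope was 0.19.

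miR-1224 had r = 0.676 (exact permutation p = 0.0720, adjusted p = 0.0720), rho = 0.476 (exact permutation p = 0.243, adjusted p = 0.243) and a slope of 0.44, and did not pass. Its r was -0.0041 without RE replicate 9, 0.902 without RE replicate 8 (adjusted p = 0.00446, exact permutation) and 0.797 without both (exact permutation p = 0.0458, adjusted p = 0.0688). Groups of 4 are too small for a correlation of their own.

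**Figure D3:**
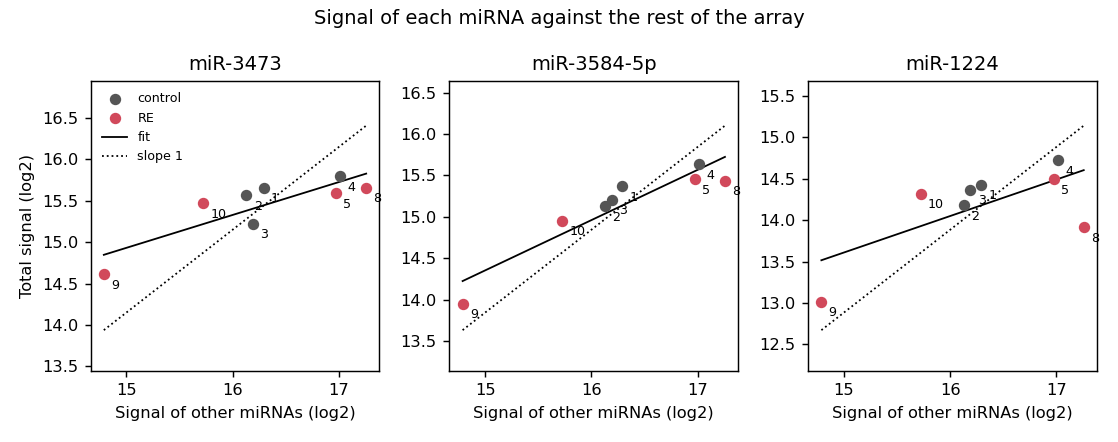
Each point is 1 array, with the log2 summed signal of the other rat miRNAs on the horizontal axis and the log2 total signal of the named miRNA on the vertical axis, numbered by replicate. The solid lines are least-squares fits with slopes of 0.40, 0.61 and 0.44, flatter than the dotted line of slope 1, and RE replicate 9 lies at the lower left of each panel.

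Slopes below 1 were common on these arrays. Over the 144 miRNAs detected on all arrays, each left out of its own rest along with the 3, the slope had a median of 0.85 and ran from -0.37 to 1.58, and 47, 57 and 49 of them had lower slopes than miR-3473, miR-3584-5p and miR-1224. The slopes of the 3 were thus inside the range of the whole array but below those of the next brightest miRNAs, which were 0.98 to 1.36 at ranks 4 to 10. This difference was not tested. The rest includes the signal of ranks 4 to 10, save the miRNA compared, but none of the 3. Bright miRNAs thus shape the sum they are set against, which partly builds in slopes near 1 for them. The same holds for the relation of slope to brightness below. Among the 129 other miRNAs with a matched sequence, brighter miRNAs had higher slopes (rho = 0.455). These are descriptions, since all miRNAs share the same 8 arrays.

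The 3 were richer in G than the miRNAs next to them in brightness. G made up 61.9% of miR-1224, the highest of the 641 matched miRNAs, 55.6% of miR-3584-5p, which ranked 3, and 40.9% of miR-3473, which ranked 40. The median was 23.8%, and the highest among ranks 4 to 10 was 31.8%. G and C together made up 54.5% of miR-3473, which ranked 150, 72.2% of miR-3584-5p and 66.7% of miR-1224, against a median of 47.6%. At ranks 4 to 10 by signal the median was 45.5%. There miR-24-3p had 54.5% and miR-92a-3p 57.1%, with slopes of 1.14 and 1.28. Across the 129 others, G and C content went with lower slopes (rho = -0.576), and G content alone did so less (rho = -0.235). The 19 others with at least the G content of miR-3473 had a median slope of 0.23 (range -0.37 to 1.30), and the remaining 110 had 0.91. G content alone showed almost no relation to mean signal (rho = 0.0569). G and C content was not set against mean signal, so its relation to slope was not separated from that of brightness.

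**Figure D4:**
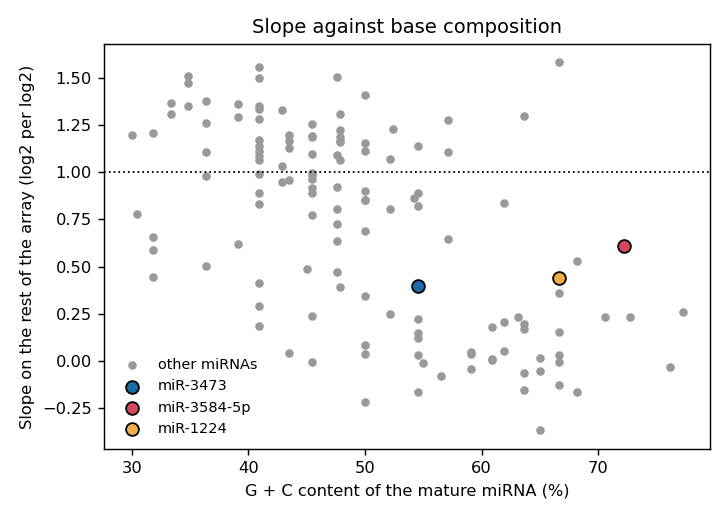
Each point is 1 of 132 miRNAs detected on all 8 arrays, with its G and C content (%) on the horizontal axis and its slope on the rest of the array (log2 per log2) on the vertical axis. Slopes near 0 are common above 60% G and C, and miR-3473, miR-3584-5p and miR-1224 have 0.40, 0.61 and 0.44.

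The miRNAs whose scaled signal moved most like each of the 3 over the 8 arrays were mostly far dimmer. Of 143 candidates, miR-3593-3p (r = 0.976), miR-326-5p (0.975) and miR-877 (0.965) were nearest to miR-3473. For miR-3584-5p they were miR-326-5p (0.956), miR-770-3p (0.954) and miR-1224 (0.944). For miR-1224 they were miR-770-3p (0.978), miR-327 (0.967) and miR-3584-5p (0.944). The brightest of these outside the 3 was miR-327, with a mean signal of 2311. All scaled signals of an array share its divisor, so miRNAs whose unscaled signal barely follows the array can have a high r. The neighbours outside the 3 had slopes of -0.37 (miR-877), -0.17 (miR-3593-3p), -0.053 (miR-326-5p), 0.23 (miR-770-3p) and 0.23 (miR-327) on the rest. These r are thus not separate evidence that the miRNAs move together. The part of the divisor in them was not tested. miR-3584-3p, from the other arm of the miR-3584 hairpin, was detected on 1 of 8 arrays, at 15.5 in control replicate 2.

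The pair of probes agreed best for miR-3584-5p. The mean processed intensity of its longer probe was 0.956 to 1.07 times that of its shorter probe on every array, with a geometric mean of 1.02. The standard error of this ratio from the 10 spots of each probe was 3.30% to 7.66%.

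For miR-3473 the extra base went with a much higher intensity. The shorter probe averaged 6510 and the longer one 63161, and the ratio was 9.10, 8.25, 9.41 and 10.5 in controls and 9.53, 10.2, 10.5 and 9.86 in RE. The geometric mean was 9.64. The ratio was thus large but steady, with a log2 SD of 0.12 over the 8 arrays.

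For miR-1224 the ratio was larger and varied between arrays. It was 16.6, 10.9, 15.8 and 22.2 in controls and 24.6, 17.4, 13.6 and 12.0 in RE. Its standard error from the spots was 2.97% to 8.24% on single arrays. The shorter probe was brightest in RE replicate 10 (2370) and control replicate 2 (2308), and the longer one in control replicate 4 (39112) and RE replicate 5 (33891), so the probes ordered the arrays differently. Among 126 other miRNAs with probes 1 base apart, the ratio had a median of 2.42, and 3 exceeded that of miR-3473 and 2 that of miR-1224. The log2 SD of the ratio was 0.41 for miR-1224, against a median of 0.12 in these others, of which 3 were higher. The shorter probe made up 6.01% of the total probe signal of the pair for miR-1224, 9.32% for miR-3473 and 49.3% for miR-3584-5p.

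**Figure D5:**
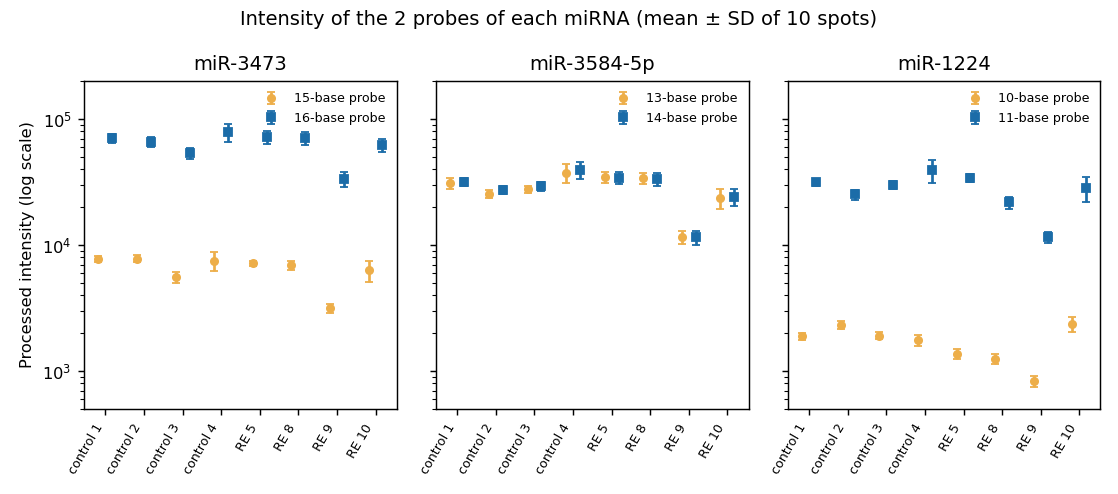
Points give the processed intensity (log axis) of the shorter and the longer probe of each miRNA on 8 arrays, as the mean ± SD of 10 spots. The pair overlaps for miR-3584-5p, lies 8.25- to 10.5-fold apart for miR-3473 and 10.9- to 24.6-fold apart for miR-1224.

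Every spot of the 6 probes was measurable. Over 480 spots, 0 were saturated, all 480 were well above background and 8 carried an outlier mark. The coefficient of variation over 10 spots was 4.89% to 22.5%, with a median of 9.95%. Control replicate 4 and RE replicate 10 had the most uneven spots, with medians of 16.6% and 16.9%.

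None of the probe targets occurs in another mature miRNA of the RefSeq table. The targets of both miR-1224 probes also occur in the hairpin of Mir632. A short target occurs more often than a long one by length alone, so the counts below do not rank the probes. The probe targets were also looked for, on both strands, in the 33469 RefSeq promoter windows (300 bases around each gene's start). GGAGGTGGAG, the target of the 10-base probe of miR-1224, was in 214 of them (0.639%), and GGGAGGTGGAG, that of the 11-base probe, in 60 (0.179%). GAGTCCAGGAGGC of miR-3584-5p was in 1 window, and CTGGAGAGATGGCTA of miR-3473 in 0.

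Without its last base, the miR-3473 target becomes a common repeat. CTGGAGAGATGGCT was in 120 windows (0.359%), the most among the 498 array miRNAs for which a matching 14-base run could be taken, of which 443 had none. This run stands near the start of the B2 element, a short repeat spread through rodent genomes. Whether RNA from such copies added to the miR-3473 signal was not tested.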

How the data were processed

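The authors hybridised labelled serum exosomal RNA to Agilent rat miRNA arrays (release 19) and deposited scanner tables made with Agilent Feature Extraction 10.10.1.1. These hold background-subtracted intensity per spot and a total signal per miRNA, not scaled between arrays and set to 0.1 where a miRNA was not detected. The deposited value table equals the spots' processed intensity on all 15095 features (largest difference 5e-10) and was used as an alternative.

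The miRNAs, lists and tests were chosen with earlier results of these data known. The 3 miRNAs were taken by name as those with the highest mean total signal, so their levels and ranks are a description. Also named are the other arm of their hairpins, miRNAs sharing a seed, ranks 4 to 10 by signal, the 3 miRNAs nearest in scaled signal to each, and the cell type markers.

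Total signals were scaled to the 75th percentile of their array, computed from the 144 miRNAs that all arrays detected. Values under 0.00350, the lowest scaled value among detected miRNAs, were raised to it before log2. With limma 3.58.1 (R 4.3.3), 192 miRNAs that every array of either group detected were tested, two-sided, with Benjamini-Hochberg adjustment. Group shares and relations to the rest were tested by exact permutation (70 splits, 40320 pairings), adjusted over the 3 miRNAs. Shares and sums used detected miRNAs only. The fit was checked on simulated data. The number of arrays limits the precision. Sequences were matched by name in RefSeq tables, where 641 of 719 array miRNAs had an entry. Alternatives covered the signal, background correction, scaling, filter, variance model, test and leaving out each array. Python 3.11.15, pandas 2.3.3, numpy 2.4.6, scipy 1.17.1 and matplotlib 3.10.9 were used. RT-PCR, tissue data and other animal models were not analysed here.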

Additional observations from a re-analysis of the deposited data

Results flagged for a closer look

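Of 26 groups of 4 values compared, 2 held a sample far from the others of its group, where chance flags about 1 in 20 groups. Scaled miR-1224 was 4.89 on the log2 scale in control replicate 4, with the nearest control at 5.23. The ratio of the longer to the shorter probe of miR-3584-5p was 0.996 in control replicate 1, with the nearest control at 1.06.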

How the results depend on the processing

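No paired analysis was possible because the controls are numbered 1 to 4 and the RE samples 5, 8, 9 and 10, so the groups share no number. None of the 3 miRNAs was called under any alternative run. The methods' scaling was run with limma, and the methods' tests on the scaling used here, so the authors' own combination was not run. Array quality weights gave the lowest adjusted p, with log2 fold changes of -0.65, -0.64 and -0.80 for miR-3473, miR-3584-5p and miR-1224 (limma adjusted p = 0.152, 0.132 and 0.115), where the median of all tested was -0.37. Their log2 fold changes turned positive with the 75th percentile over all miRNAs and with the methods' scaling, to 1.54 for miR-3473, 1.38 for miR-3584-5p and 1.28 for miR-1224. That percentile is the value of an undetected miRNA in RE replicate 9, where 144 of 719 miRNAs were detected. miR-3473 also turned positive with median scaling (0.059) and total signal scaling (0.028). With 1 array left out, the log2 fold changes ran from -0.34 to 0.038 for miR-3473 (positive without RE replicate 5 or 8), from -0.45 to -0.19 for miR-3584-5p and from -0.68 to -0.12 for miR-1224. The cause was not tested. Quantile normalization fixes the value at each rank, so it gave 0 for miR-3473 and miR-3584-5p.

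The number of miRNAs called by limma was 2. It was 0 with mean spot intensity, the value table, normexp, the 75th percentile over all miRNAs, the methods' scaling or only miRNAs detected on all arrays, where unadjusted p under 0.05 gave 5, 5, 0, 1, 3 and 1. It was 1 with total signal scaling, the total of the other miRNAs, no scaling, no filter, eBayes with trend and robust, and the methods' t-test and analysis of variance under Benjamini-Hochberg or Bonferroni, and 1 to 2 with 1 array left out. It was 2 with median scaling and 3 with quantile normalization or array quality weights, where unadjusted p under 0.05 gave 5 and 56.

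The share differences ran from -1.31 to 3.04 percentage points for miR-3473, from -2.36 to -0.918 for miR-3584-5p and from -2.45 to 0.124 for miR-1224 with 1 array left out. The sign for miR-3473 turned without control replicate 4 (-0.052), RE replicate 9 or RE replicate 10 (-0.519), and that for miR-1224 without RE replicate 8. The r with the rest ran from 0.584 to 0.893, from 0.887 to 0.958 and from -0.0041 to 0.902 for miR-3473, miR-3584-5p and miR-1224, and their slopes from 0.19 to 0.45, from 0.36 to 0.70 and from -0.0018 to 0.66, each lowest without RE replicate 9. For miR-1224, r was 0.768 (adjusted p = 0.0437, exact permutation) against the 75th percentile of the others, and for miR-3473 it was 0.572 without the 2 farthest arrays.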
